A study of Mus musculus with 9 samples.

Results

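Sphingolipids are built on a long-chain base, and 10 enzymes that make or break down ceramide, the lipid at the centre of the pathway, or phosphorylate the sphingosine released from it were followed here in the livers of STAM mice and normal mice. The enzymes were Sptlc1, Sptlc2, Degs1, Cers2, Cers4, Cers5, Cers6, Smpd3, Asah1 and Sphk1, and their probes were found by matching the RefSeq transcript given for each non-control probe of the array to a gene symbol. All 10 genes were found, on 13 of the 55681 distinct probes of the array, where 20972 gene symbols could be named. All 13 probes passed the filter on dim signals. Sptlc2, Asah1 and Sphk1 had 2 probes each and the other genes had 1.

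Ceramide is made in the endoplasmic reticulum by condensing serine with a fatty acyl-CoA, reducing the product, adding a second fatty acid of a length set by the ceramide synthase, and introducing a double bond. It is also released from sphingomyelin by sphingomyelinases, used up for sphingomyelin and glycosphingolipids, or cleaved by ceramidases to sphingosine, which kinases turn into the signalling lipid sphingosine 1-phosphate. In liver, Cers2 is the main ceramide synthase and makes very-long-chain ceramides, while Cers5 and Cers6 make ceramides with the shorter palmitic acid, which have been studied in fatty liver and insulin resistance.

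Total liver RNA of 9 male mice at 20 weeks of age was labelled with Cy3 and hybridised to 1-colour Agilent mouse arrays, 1 mouse to an array. STAM mice are male C57BL/6J mice given a low dose of streptozotocin, a toxin of the insulin-secreting beta cell, as newborns and then a high-fat diet, and they develop diabetes, fatty liver disease and liver tumours. The groups were 3 untreated STAM mice (STAM-NON), 3 STAM mice treated with insulin (STAM-INS) and 3 Normal mice on a chow diet, which had no streptozotocin. Insulin was given as injections of insulin glargine. Both STAM groups shared streptozotocin and the diet, so that a difference from Normal mice does not tell these apart.

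Signals are given as log2 signal centred on the 75th percentile of each array, so that a value of 0 is the level of that percentile and a difference of 1 is a doubling; values of different probes are not comparable. Between 46.2% and 65.0% of the non-control spots were well above background on an array, and arrays of the same group correlated at r = 0.979 or more over the tested probes. All 10 hepatocyte markers examined, among them Alb and Ttr, were detected on all 9 arrays. The 3 Normal arrays were on another slide, scanned separately, than the 6 STAM arrays, so slide and group cannot be told apart in comparisons with Normal mice. All STAM-NON arrays and STAM-INS 1 lay in row 1 of their slide and STAM-INS 2, STAM-INS 3 and all Normal arrays in row 2, so row and group coincide between STAM-NON and Normal mice as well. The median difference of all tested genes was -0.10 for STAM-NON against Normal, 0.03 for STAM-INS against STAM-NON and -0.06 for STAM-INS against Normal. In whole liver, fewer cells of a type and less RNA per cell cannot be told apart.

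The 250 bases before the transcription start of Cers2, Cers5 and Cers6 are printed because the STAM-NON differences of these ceramide synthases from Normal lay furthest apart, as described further on, and they were taken from RefSeq on build GRCm38.p6 and written 5′ to 3′ on the strand of the gene. Capitals mark the GC box, GGGCGG or its reverse complement CCGCCC, and the E-box CACGTG, which reads the same on both strands. RefSeq lists 2 starts for Cers2, and the Cers2 and Cers6 windows lie inside the outermost span of their genes, which RefSeq begins further upstream.
Cers2 first start, chr3:95314940-95315189, plus strand: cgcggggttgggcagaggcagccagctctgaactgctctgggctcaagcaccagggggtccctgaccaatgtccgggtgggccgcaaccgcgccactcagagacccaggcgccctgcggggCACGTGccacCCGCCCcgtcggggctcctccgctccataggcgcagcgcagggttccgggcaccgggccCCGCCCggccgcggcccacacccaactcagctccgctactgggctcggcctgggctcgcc
Cers2 second start, chr3:95318580-95318829, plus strand: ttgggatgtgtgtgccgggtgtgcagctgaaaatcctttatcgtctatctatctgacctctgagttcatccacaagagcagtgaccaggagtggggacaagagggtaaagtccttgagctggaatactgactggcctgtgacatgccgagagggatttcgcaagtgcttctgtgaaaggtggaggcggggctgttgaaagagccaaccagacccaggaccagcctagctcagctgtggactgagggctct
Cers5, chr15:99772516-99772765, minus strand: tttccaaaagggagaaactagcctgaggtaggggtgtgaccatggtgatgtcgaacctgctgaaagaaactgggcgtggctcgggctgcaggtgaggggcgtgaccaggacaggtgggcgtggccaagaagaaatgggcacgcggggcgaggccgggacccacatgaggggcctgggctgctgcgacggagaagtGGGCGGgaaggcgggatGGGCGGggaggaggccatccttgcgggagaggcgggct
Cers6, chr2:68861191-68861440, plus strand: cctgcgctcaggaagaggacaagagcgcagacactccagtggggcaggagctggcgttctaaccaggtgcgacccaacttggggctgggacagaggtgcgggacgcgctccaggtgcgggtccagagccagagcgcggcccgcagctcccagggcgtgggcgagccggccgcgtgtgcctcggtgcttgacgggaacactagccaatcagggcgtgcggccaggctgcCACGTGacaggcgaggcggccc
The first Cers2 start had 2 GC boxes and 1 CACGTG, the second had neither motif, Cers5 had 2 GC boxes and Cers6 had 1 CACGTG. Of 32851 RefSeq windows of the same length, 32.7% held a GC box and 6.02% held CACGTG. A match describes letters only and no binding was measured.

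In untreated STAM liver, Cers2 was lower than in Normal liver, and Cers5, Cers6, Asah1 and Sptlc2 were higher in each of the 3 STAM-NON mice than in any Normal mouse, without passing the test. Of the 10 genes, 1 passed an adjusted p of 0.05 in limma, a lower Cers2, against 16.3% of all 13386 tested genes in either direction, 7.94% higher and 8.4% lower. With centring on the spike-in controls of the array in its place, Cers2 did not pass and Cers5 passed as higher, while 2443 of all 26277 tested probes passed as higher and 438 as lower, against 1672 and 2418 with the percentile. At an unadjusted p under 0.05 there were 5 of 10, against 35.6% of all tested genes. The groups did not overlap for 5 of 10, against 40.5% of all tested genes. With 10 genes, these shares do not set the enzymes apart from all genes. Their median difference was 0.37, against -0.10 over all genes. With another background correction (normexp) it was 0.17, against -0.11 over all tested probes, and with spike-in centring 0.64, against 0.14. Of the 10 differences 8 were positive, and no share over all genes was taken to set beside this. The genes were chosen with earlier results of these data known, so these values are a description only.

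**Figure D1:**
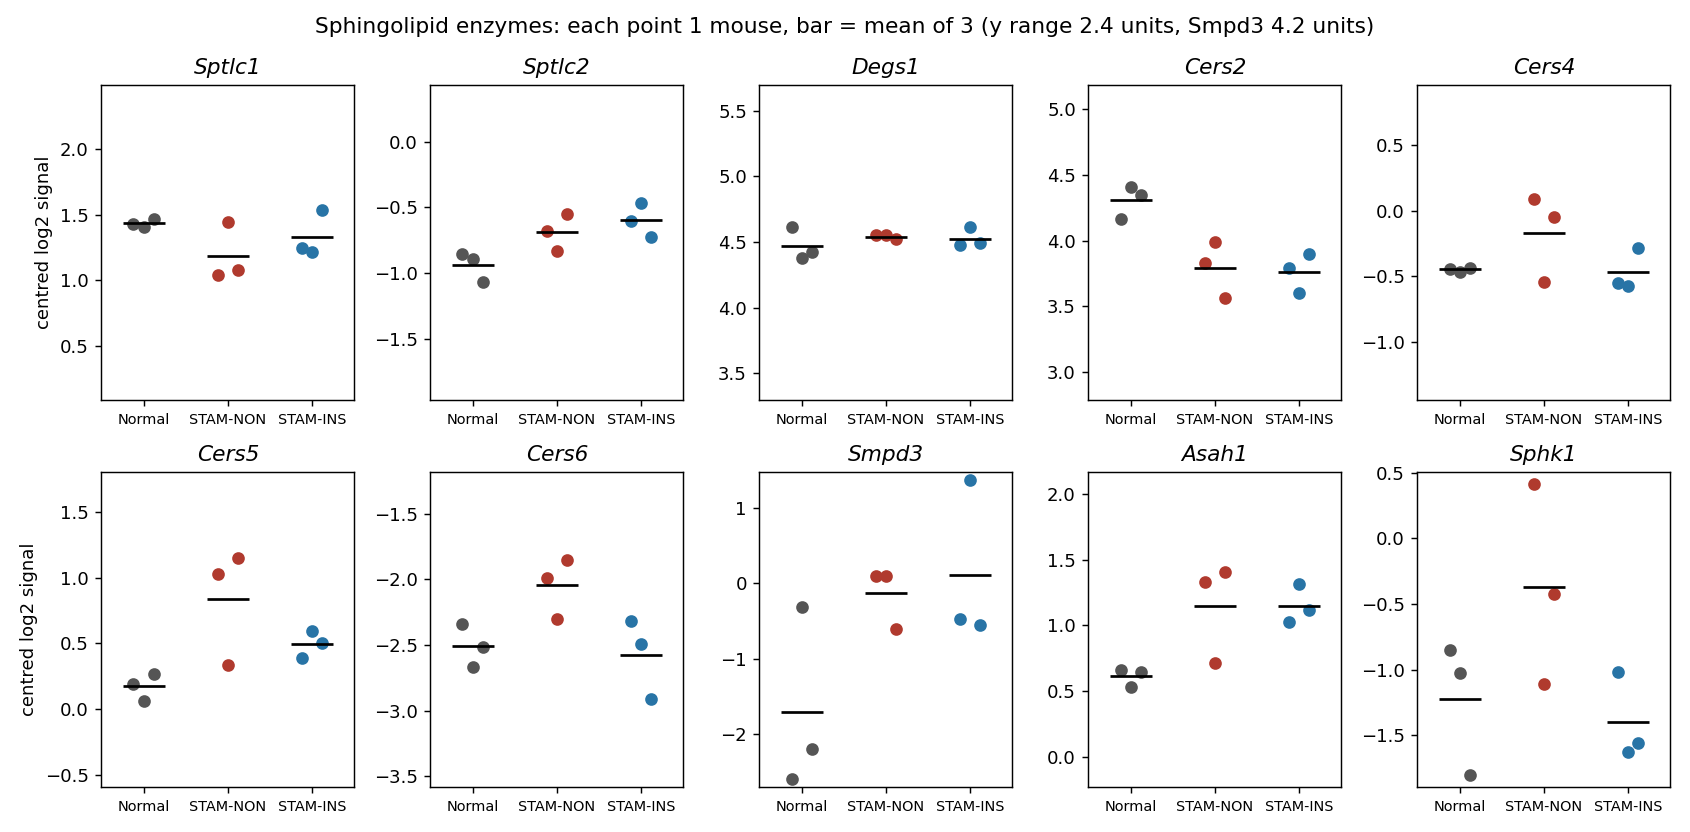
Centred log2 signal (y axis, panel ranges of 2.4 units and 4.2 for Smpd3) of the main probe of each of the 10 genes, by group; each point is 1 mouse and the bar is the mean of 3. The Cers2 points of both STAM groups lie below all Normal points, whereas the Cers5 and Asah1 points of both STAM groups lie above them.

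The ceramide synthases differed in direction. Cers2, whose product carries very-long-chain fatty acids, had signals of 3.83, 3.99 and 3.56 in the STAM-NON mice, 3.79, 3.60 and 3.90 in the STAM-INS mice and 4.17, 4.41 and 4.34 in the Normal mice. All 6 STAM mice were below all 3 Normal mice, and the STAM groups overlapped with each other. Cers2 fell by 0.51 on the log2 scale in STAM-NON (SE 0.15, limma, adjusted p = 0.0494, 3 mice a group), which is 1.43-fold. In STAM-INS it fell by 0.54 (adjusted p = 0.0446 in limma), or 1.46-fold. STAM-INS and STAM-NON differed by -0.03 (95% CI -0.37 to 0.30, adjusted p = 0.966 in limma). Both calls lay close to the threshold. Under 24 alternative settings the STAM-NON difference was negative in all 24, between -0.67 and -0.25, and it passed an adjusted p of 0.05 in 5 of the 23 that give one. It passed in 1 of the 9 settings that left out an array, the one without STAM-NON 2. The STAM-INS difference was negative in all 25 and passed in 8 of 24 with an adjusted p, among them those without STAM-NON 2 or STAM-NON 3 but no other that left out an array.

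Cers5, which makes palmitoyl ceramides, had signals of 1.03, 0.33 and 1.15 in STAM-NON, 0.39, 0.59 and 0.50 in STAM-INS and 0.19, 0.06 and 0.26 in Normal. The 6 STAM mice were all above the Normal mice, and STAM-NON 2 was the lowest of them. The difference of STAM-NON from Normal was 0.67 (95% CI 0.20 to 1.14, limma adjusted p = 0.0594), that of STAM-INS from Normal 0.32 (adjusted p = 0.308) and that of STAM-INS from STAM-NON -0.34 (95% CI -0.81 to 0.13, adjusted p = 0.664). Without STAM-NON 2 the first of these was 0.92 (limma, adjusted p = 0.00552). In that setting 5941 of all 26277 tested probes passed, against 4090 with all arrays. STAM-NON 2 had 47.8% of its spots well above background, against 59.3% and 63.1% in the other STAM-NON arrays. The share was 47.8% to 65.0% in STAM-INS and 46.2% to 51.1% in Normal. Cers5 passed in 4 of the 23 alternatives that give an adjusted p.

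Cers6, with the same fatty acid preference as Cers5, was at -1.99, -2.30 and -1.85 in STAM-NON, -2.32, -2.50 and -2.91 in STAM-INS and -2.34, -2.67 and -2.52 in Normal. STAM-NON was above both other groups without overlap, and STAM-INS lay among the Normal values or below them, apart from 1 mouse slightly above. The differences were 0.46 for STAM-NON from Normal (95% CI 0.03 to 0.89, limma adjusted p = 0.119) and -0.53 for STAM-INS from STAM-NON (95% CI -0.96 to -0.10, unadjusted p = 0.0212, adjusted p = 0.503 in limma). Cers4, a ceramide synthase of long-chain ceramides, gave 0.28 for STAM-NON from Normal (adjusted p = 0.269 in limma). Its STAM-NON signals were 0.09, -0.54 and -0.04, against -0.46 to -0.44 in Normal and -0.57 to -0.29 in STAM-INS, so that STAM-NON 2 lay below all Normal mice and the other 2 above.

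A ratio of probes within 1 array does not depend on the value on which that array was centred. A ratio to Cers2 was therefore taken for the other synthases, relative to the Normal mean. It can change with quantile normalisation or another background correction, under which the ratios were not taken. These ratios are a description without a test, and the one for Cers4 was chosen after its values were seen. The Cers5 to Cers2 ratio, in log2, was 1.33, 0.48 and 1.73 in STAM-NON (mean 1.18, SD 0.64, n = 3), or 2.26-fold. It was 0.73, 1.13 and 0.74 in STAM-INS (mean 0.87, SD 0.23, n = 3) and between -0.21 and 0.16 in Normal. No STAM mouse overlapped with a Normal mouse in this ratio, which follows from the separation of Cers5 and of Cers2 given above and adds nothing to it. The Cers6 to Cers2 ratio was 0.99, 0.52 and 1.41 in STAM-NON (mean 0.97, SD 0.44, n = 3), 0.71, 0.72 and 0.00 in STAM-INS and -0.26 to 0.30 in Normal, with 1 STAM-INS mouse inside the Normal range. The same measure was taken for Sphk1 against Sgpl1, the lyase that degrades sphingosine 1-phosphate. It was 1.75, 0.35 and 0.96 in STAM-NON (mean 1.02, SD 0.70, n = 3), so that STAM-NON 2 lay inside the Normal range of -0.66 to 0.39. In STAM-INS it averaged -0.33 (SD 0.33, n = 3). For Asah1 against Sptlc2 it was -0.01 to 0.46 in STAM-NON, 0.07 to 0.29 in STAM-INS and -0.13 to 0.16 in Normal, all overlapping. The Cers4 to Cers2 ratio averaged 0.79 (SD 0.50, n = 3) in STAM-NON and 0.52 (SD 0.09, n = 3) in STAM-INS, both without overlap with Normal, whose highest value was 0.15. Cers4 itself differed from Normal by -0.02 in STAM-INS, so this ratio restates the lower Cers2 there.

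**Figure D2:**
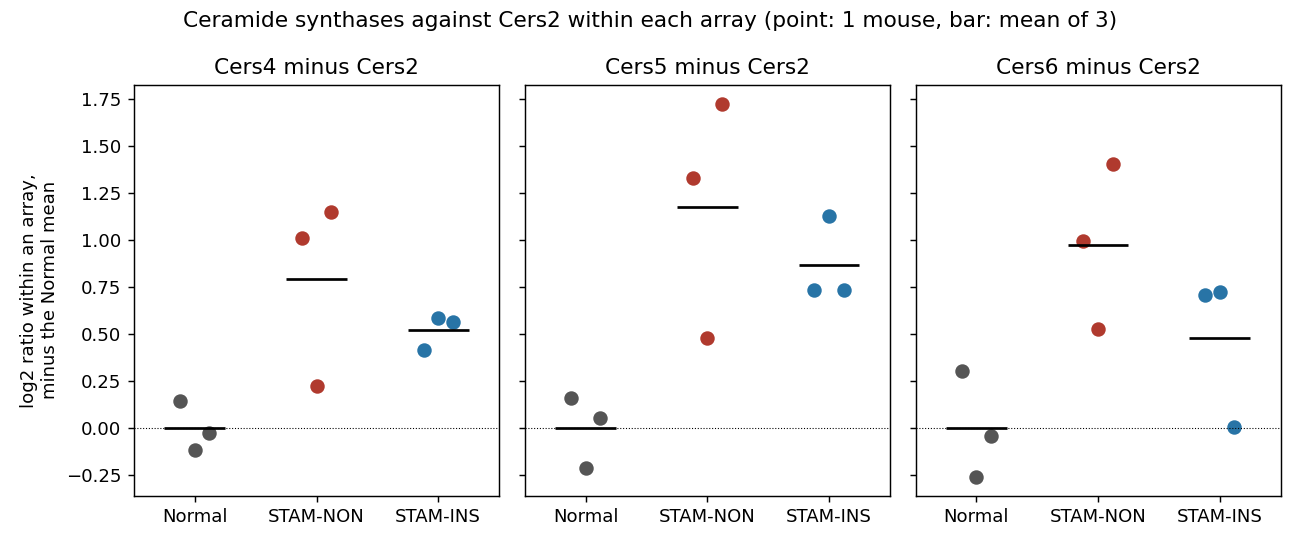
Log2 ratio of Cers4, Cers5 or Cers6 to Cers2 within each array, minus the Normal mean (y axis), by group; each point is 1 mouse and the bar is the mean of 3. The ratios of all 6 STAM mice lie above those of the Normal mice for Cers4 and Cers5, while 1 STAM-INS mouse lies in the Normal range for Cers6. The separation for Cers5 follows from that of Cers5 and of Cers2 alone.

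No member of de novo synthesis outside the ceramide synthases passed the test. Sptlc1 and Sptlc2 encode subunits of serine palmitoyltransferase, the first and rate-limiting step. Sptlc1 was at 1.04, 1.44 and 1.08 in STAM-NON and 1.40 to 1.47 in Normal, with a difference of -0.25 (SE 0.14, limma adjusted p = 0.247). Sptlc2 was at -0.68, -0.83 and -0.55 in STAM-NON, -0.60, -0.47 and -0.73 in STAM-INS and -0.86, -0.89 and -1.07 in Normal, so both STAM groups were above Normal without overlap. Its differences were 0.25 for STAM-NON (adjusted p = 0.188 in limma) and 0.34 for STAM-INS (95% CI 0.05 to 0.63, adjusted p = 0.103 in limma). The second Sptlc2 probe gave 0.29 and 0.18, with overlapping groups. Degs1, the desaturase that turns dihydroceramide into ceramide, was between 4.38 and 4.61 on every array, and its 95% CI for STAM-NON from Normal ran from -0.17 to 0.31.

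Smpd3, a neutral sphingomyelinase that releases ceramide from sphingomyelin, was the most variable of the genes. It was at 0.10, 0.10 and -0.60 in STAM-NON, -0.47, 1.38 and -0.56 in STAM-INS and -2.60, -0.32 and -2.21 in Normal. Normal 2 lay within the STAM-NON values and the other 2 Normal mice far below. The differences from Normal were 1.58 for STAM-NON (95% CI 0.03 to 3.13, limma adjusted p = 0.137) and 1.83 for STAM-INS (95% CI 0.28 to 3.38, limma adjusted p = 0.105). Single mice moved both. Without STAM-INS 2 the STAM-INS difference was 1.20 (limma adjusted p = 0.281), and without Normal 2 it was 2.52 and passed (limma adjusted p = 0.0497). The STAM-NON difference was 2.27 without Normal 2 (limma adjusted p = 0.0658) and 1.13 without Normal 1 (limma adjusted p = 0.334).

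Asah1, the acid ceramidase of the lysosome, was at 1.33, 0.71 and 1.41 in STAM-NON, 1.02, 1.31 and 1.12 in STAM-INS and 0.66, 0.53 and 0.64 in Normal. All 6 STAM mice were above all Normal mice, with STAM-NON 2 nearest to them. The difference was 0.54 for both STAM-NON (adjusted p = 0.0831 in limma) and STAM-INS (adjusted p = 0.0897 in limma), and the second probe gave 0.46 and 0.52. Between STAM-INS and STAM-NON it was 0.00 (95% CI -0.43 to 0.43), which leaves room for a difference of up to that size. Without STAM-NON 2 the STAM-NON difference was 0.76 (limma, adjusted p = 0.00917), in the setting where 5941 of all 26277 tested probes passed. Asah1 passed in 1 of the 23 alternatives that give an adjusted p, this one.

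Sphk1, the kinase that makes sphingosine 1-phosphate, had 2 probes that match different RefSeq transcripts. On the brighter probe the signals were 0.42, -1.11 and -0.42 in STAM-NON, -1.02, -1.62 and -1.56 in STAM-INS and -0.85, -1.03 and -1.80 in Normal. The highest values were those of STAM-NON 1 and 3, and STAM-NON 2 lay within the other groups. The differences were 0.85 for STAM-NON from Normal (adjusted p = 0.162 in limma) and -1.03 for STAM-INS from STAM-NON (95% CI -1.94 to -0.12, unadjusted p = 0.0308, adjusted p = 0.533 in limma).

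The second Sphk1 probe was at -2.41, -3.17 and -2.87 in STAM-NON, -3.51, -4.56 and -4.72 in STAM-INS and -3.98, -4.25 and -4.52 in Normal. It was well above background on all 3 STAM-NON arrays, on 1 of 3 STAM-INS arrays and on no Normal array. The STAM-NON mice were above all others. The probe passed the filter on dim signals only through STAM-NON, the group where it was high. Its call is therefore not independent support for a rise. With the main processing the fitted difference was 1.43 (limma adjusted p = 0.0289), where 15.6% of all tested probes passed in either direction. The fold over Normal was 2.12 or more with that processing. This bound sets the STAM-NON mean against the higher of each Normal array's lowest signal well above background and the signal of the probe itself. With the row of the slide as a block the fitted difference was 0.29 (adjusted p = 0.755 in limma). That fit takes the row effect only from STAM-INS 1 against STAM-INS 2 and 3. It rests on 1 mouse in row 1 and cannot separate row from group. With another background correction (normexp) the probe gave 0.25 (adjusted p = 0.0639 in limma). Its call was also lost without STAM-NON 1, STAM-NON 3 or any 1 of the Normal mice (limma adjusted p from 0.0622 to 0.0907), with quantile normalisation, with no filter on dim probes and in the methods' t-test after adjustment, so that it passed in 11 of 21 alternatives. The STAM-INS difference from STAM-NON was -1.45 (unadjusted p = 0.00224, adjusted p = 0.328 in limma).

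**Figure D3:**
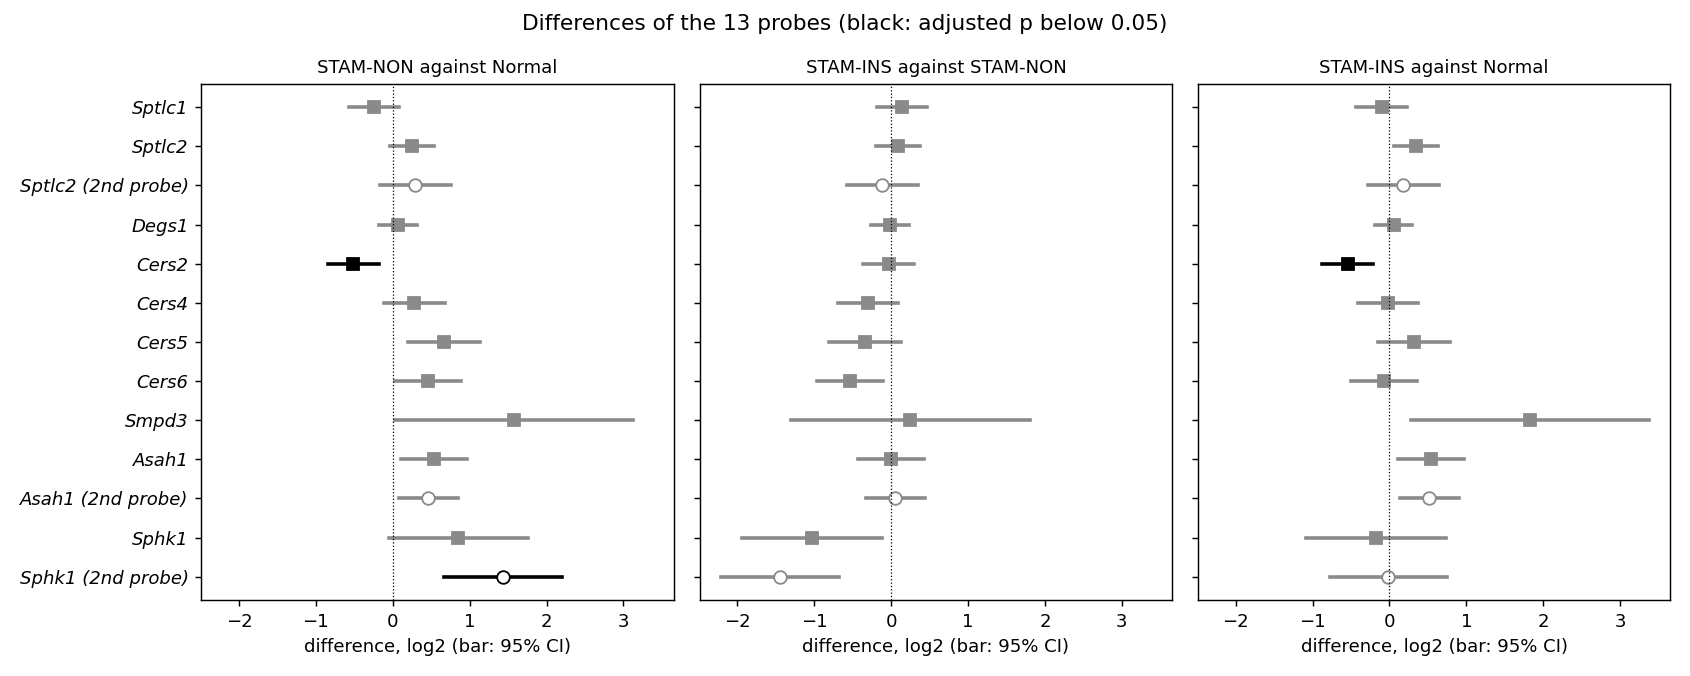
Differences in log2 (x axis) of the 13 probes (y axis) in the 3 comparisons, with 95% confidence intervals; squares are main probes, open circles second probes, and black marks an adjusted p below 0.05. Cers2 is black in both comparisons with Normal and the second Sphk1 probe in STAM-NON against Normal; no probe is black in STAM-INS against STAM-NON.

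Insulin-treated and untreated STAM livers were not told apart in any of the 10 genes by limma at an adjusted p of 0.05, nor by the methods' t-test after adjustment, in a comparison where 0.0822% of all tested genes passed. At an unadjusted p under 0.05 there were 2 of 10, Cers6 and Sphk1, both lower in STAM-INS, against 9.34% of all tested genes. On the main probes, 1 of 10 genes, Cers6, had groups that did not overlap, against 12.6% of all tested genes, and the second Sphk1 probe did not overlap either, with STAM-INS lower. The median difference was -0.02. The 4 tested ceramide synthases, of 6 in the pathway list, all had differences below 0, from -0.53 to -0.03. The last of these was Cers2, whose sign reversed in 2 of 25 alternatives. No share over all genes was taken to set beside this direction. Against Normal, STAM-INS had 1 of 10 past the threshold, Cers2, where 13.5% of all genes passed, 6.19% higher and 7.29% lower. At an unadjusted p under 0.05 there were 4 of 10, against 31.9% of all genes, and 4 of 10 genes had groups without overlap, against 44.7% of all genes. Those 4 were Cers2, lower, and Cers5, Asah1 and Sptlc2, higher. Each pair of comparisons shares a group of mice, so the 3 sets of values are not independent.

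Cell type markers differed between the same mice, and their part in the values above was not tested. The summed level of macrophage markers (9 on the array, 8 detected on all 9 arrays), on a linear scale, was 198 to 350 in STAM-NON, 164 to 392 in STAM-INS and 96.8 to 147 in Normal. STAM-NON 2, the STAM-NON mouse with the lowest Cers4, Cers5, Cers6, Asah1 and Sphk1, had the lowest sum in its group, at 198. STAM-INS 2 had the highest sum of its group, at 392, with the highest Cers5 and Asah1 but the lowest Cers4 and Sphk1 and a Cers6 between those of the other 2 mice. The stellate cell and fibroblast markers (10 of 10 detected on all arrays) summed to 90.5 to 150 in STAM-NON, 70.7 to 89.0 in STAM-INS and 74.2 to 84.0 in Normal. Markers of bile duct cells (4 of 6 detected on all arrays) summed to 4.58 to 11.5 in STAM-NON, 4.23 to 6.27 in STAM-INS and 2.16 to 3.69 in Normal, without overlap between STAM and Normal. Neutrophil markers (4 on the array, 2 detected on all arrays) summed to 5.13 to 181 in STAM-NON, 6.51 to 23.7 in STAM-INS and 2.23 to 2.82 in Normal, again without overlap, and 181 was that of STAM-NON 3. None of the 4 neutrophil markers passed in STAM-NON against Normal (limma adjusted p from 0.0874 to 0.176). Hepatocyte markers summed to 4800 to 6350 in STAM-NON, 6040 to 6750 in STAM-INS and 6620 to 6960 in Normal. Endothelial markers (8 of 8 detected on all arrays) summed to 59.1 to 80.5 in STAM-NON, 40.8 to 77.6 in STAM-INS and 71.9 to 80.0 in Normal. Lymphocyte markers (5 of 9 detected on all arrays) summed to 25.1 to 46.7 in STAM-NON, 30.2 to 45.6 in STAM-INS and 40.5 to 42.8 in Normal. For both the groups overlapped. On single markers, Trem2, Gpnmb, Cd5l and Clec4f of macrophages and Krt7, Sox9 and Spp1 of bile duct cells passed as higher in STAM-NON than Normal. So did Lum, Lyve1 and Ptprc of the fibroblast, endothelial and lymphocyte lists (limma adjusted p from 0.0123 to 0.0425 for all of these). Cps1 of hepatocytes passed as lower (limma adjusted p = 0.0314). No other tested marker of these lists passed, where 16.3% of all tested genes passed in either direction.

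Among 12781 genes searched, the 3 whose signals over the 9 arrays followed those of Cers2 most closely were Dym, Sdk2 and Ugp2. Their root mean square distances of centred log2 signals were 0.05, 0.05 and 0.06. The median distance over all 13386 tested genes was 0.34.

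Among the wider pathway, a list of 62 genes that includes these 10, 61 were on the array and 52 were tested. In STAM-NON against Normal 5 of 52 passed in limma, or 9.62%, with 2 higher and 3 lower, against 16.3% of all genes. This split depended on the scaling. With spike-in centring 4 passed, all higher (Acer2, B4galt6, Cerk and Cers5), and with the percentile over detected probes 2 were higher and 1 lower. B4galt6, which adds galactose to glucosylceramide to make lactosylceramide, rose by 1.61 (adjusted p = 0.0131 in limma). It was at -1.73, -2.23 and -2.04 in STAM-NON and -3.59, -3.24 and -4.01 in Normal, where it was well above background on 1 of 3 arrays, and its second probe gave 1.44. Acer2, an alkaline ceramidase of the Golgi, rose by 1.45 (adjusted p = 0.0411 in limma), from -4.21, -4.06 and -3.47 in Normal to -2.43, -2.93 and -2.03 in STAM-NON, and it too was well above background on 1 of 3 Normal arrays. Acer2 passed the filter on dim signals only through STAM-NON, and B4galt6 only through STAM-NON and STAM-INS, where they were high. Their calls are therefore not independent support for a rise. Neither passed with no filter, and with detection required on all 9 arrays neither was tested.

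The genes that fell were, beside Cers2, Gba2 and Ormdl1. Gba2, a non-lysosomal glucosylceramidase, fell by 0.72 (adjusted p = 0.0239 in limma), from 2.60 to 2.79 in Normal to 1.72 to 2.12 in STAM-NON. Ormdl1, an inhibitor of serine palmitoyltransferase, fell by 0.69 (adjusted p = 0.0151 in limma), from 2.70 to 2.83 in Normal to 1.89 to 2.26 in STAM-NON. With 1 array left out in turn, B4galt6 passed in 9 of 9 settings, Ormdl1 in 7 (not without Normal 2 or Normal 3), Gba2 in 4 (those without STAM-NON 2 or any 1 STAM-INS mouse) and Acer2 in 3 (those without STAM-NON 2, STAM-INS 2 or STAM-INS 3). Another inhibitor of the same family, Ormdl2, gave -0.52 (adjusted p = 0.0601 in limma), and its second probe -0.74 (adjusted p = 0.0473). Cerk, ceramide kinase, gave 1.27 (adjusted p = 0.0528 in limma). Among the genes nearest to the threshold in their roles, Sgms2, a sphingomyelin synthase of the plasma membrane, gave -0.59 (limma adjusted p = 0.0571), and the neutral sphingomyelinase Smpd2 gave -0.44 (limma adjusted p = 0.103). The lysosomal genes Gla, Arsa and Gm2a gave -0.40, -0.73 and -0.93, with groups that did not overlap (limma adjusted p = 0.0539, 0.0584 and 0.0732). Apom, the plasma carrier of sphingosine 1-phosphate, gave -0.55 and the receptor S1pr2 0.42, both with overlapping groups. Degs2, which makes phytoceramides, gave 0.96 (limma adjusted p = 0.195), and the ceramide transporter Cert1 -0.22. The ceramidases Asah2 and Acer3 gave 0.09 and 0.07. A second Asah2 probe gave 0.49 (limma adjusted p = 0.143), with groups that did not overlap. On their main probes, none of 9 sphingomyelin genes and none of 11 genes of sphingosine 1-phosphate passed; the second Sphk1 probe, described above, did.

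In STAM-INS against Normal 5 of 52 passed as well, or 9.62%, against 13.5% of all genes, with 1 higher and 4 lower. The split was 1 and 1 with spike-in centring, 1 and 2 with quantile normalisation or the percentile over detected probes, and 0 and 2 with the median. B4galt6 rose by 1.18, and Cers2, Gba2, Ormdl1 and Arsa fell, Arsa, a lysosomal sulfatase of sulfatide, by 1.08 (limma adjusted p = 0.0197). In STAM-INS against STAM-NON none of 52 passed in limma. Before adjustment 9 of 52 lay under 0.05, against 1250 of all 13386 tested genes, or 9.34%. The lowest p on a main probe was that of St3gal5, at -0.60 without overlap (limma, unadjusted p = 0.00948, adjusted p = 0.472). The methods' t-test gave 2 before adjustment, where 1498 of all 26277 tested probes lay under 0.05, and 0 after it. Ormdl2 in that comparison was at 0.45 (adjusted p = 0.503 in limma).

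**Figure D4:**
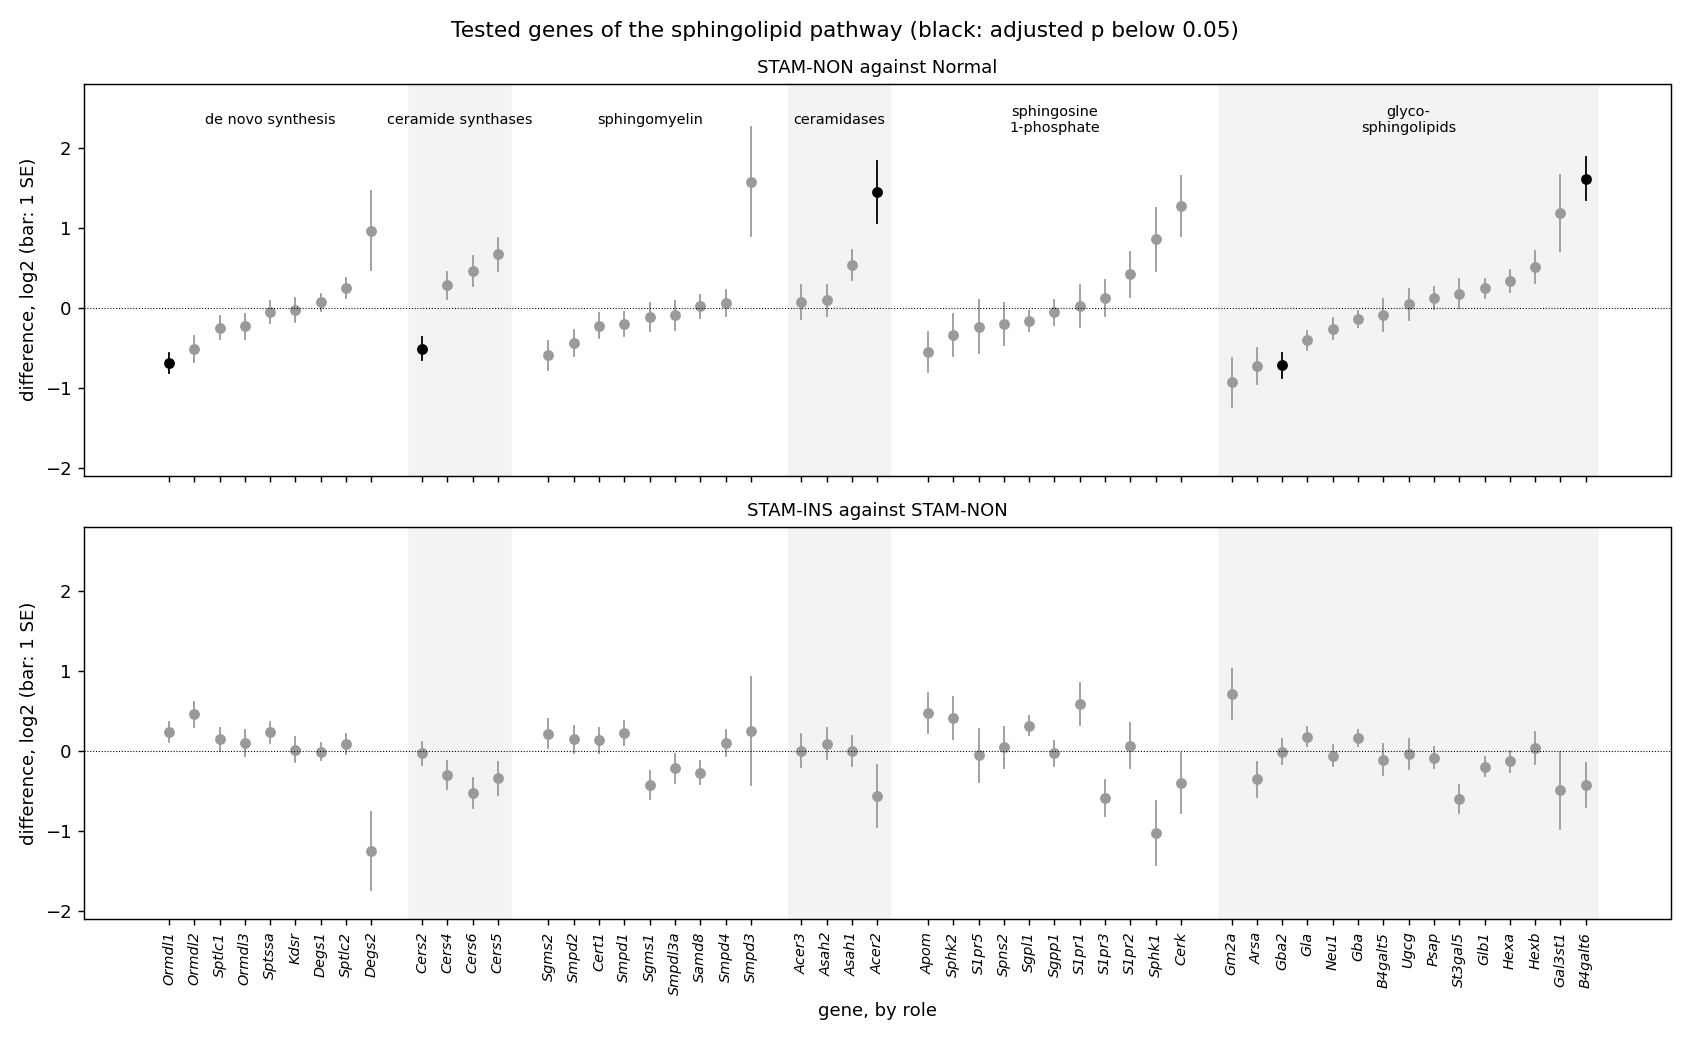
Difference in log2 (y axis, bar 1 SE) of each of the 52 tested pathway genes (x axis, by role and by the STAM-NON difference) for STAM-NON against Normal (top) and STAM-INS against STAM-NON (bottom); black marks an adjusted p below 0.05. The top panel has 5 black points, Ormdl1, Cers2, Acer2, Gba2 and B4galt6, and the bottom has none.

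How firmly each member's difference held was gauged by repeating the comparison of STAM-NON with Normal under other settings. The direction of Cers2, Cers4, Cers5, Cers6, Asah1, Smpd3, Sptlc2 and both Sphk1 probes was the same in every alternative run for it. Sptlc1 turned positive, at 0.02, when arrays were centred on spike-in controls, and Degs1 turned negative, at -0.09, when they were centred on the median. Cers5 passed an adjusted p of 0.05 in 4 of the 23 alternatives that give one, Cers4 and Asah1 in 1 each, without STAM-NON 2, and Cers6 in none.

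**Figure D5:**
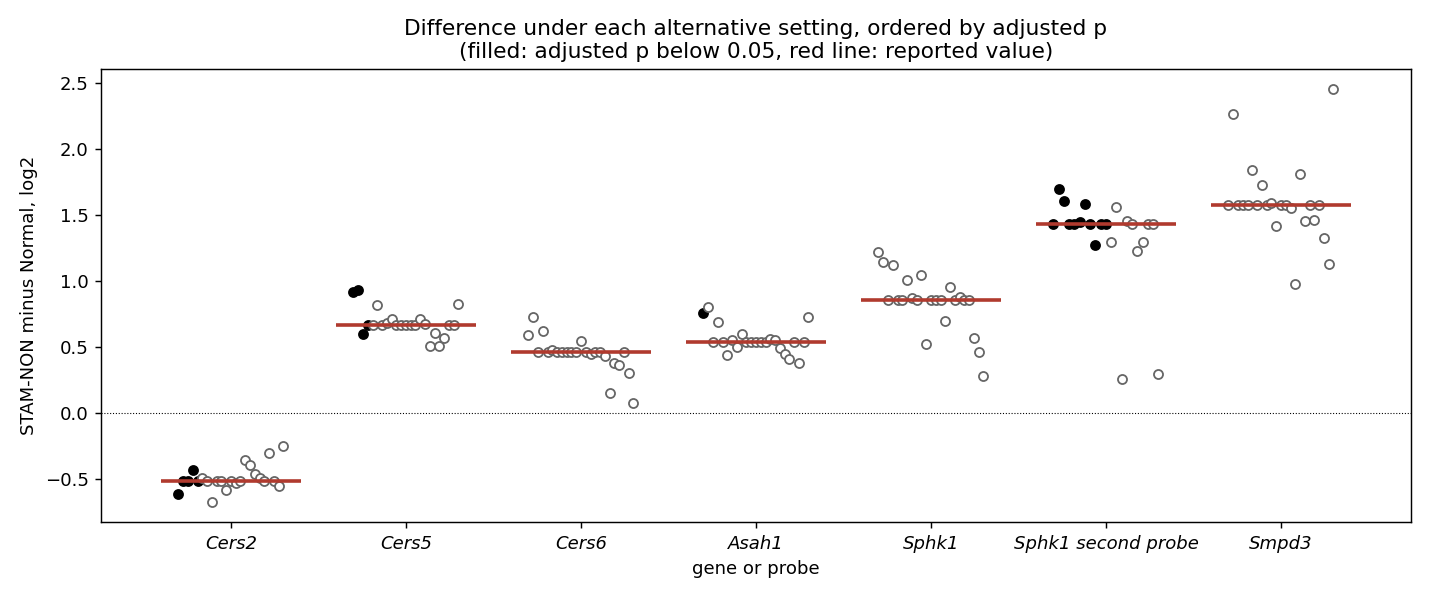
Difference of STAM-NON from Normal in log2 (y axis) for 6 genes and the second Sphk1 probe (x axis) under each alternative setting with an adjusted p, from the lowest adjusted p at the left to the highest at the right; filled points passed an adjusted p of 0.05 and the red line is the reported value. The Cers2 points are all below 0, and 5 of 23 are filled.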

How the data were processed

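Total liver RNA of 9 mice, 3 a group, was hybridised to SurePrint G3 mouse arrays, and the authors deposited the scanner output of Agilent Feature Extraction 11.5.1.1, whose processed signal is a background-corrected intensity. The outlier-flagged spots (161 to 217 an array) were left out. Log2 intensities were centred on each array's 75th percentile over 59305 non-control spots. A probe was tested where 0.5 or more of its spots were well above background on all 3 arrays of a group (26277 probes). limma 3.58.1 in R 4.3.3 was fitted to all 9 arrays (two-sided, Benjamini-Hochberg over all tested probes, threshold 0.05), with 1 probe per gene, that with the highest mean, over 13386 genes. P-values measure the spread between mice. The number of arrays limits precision. The study's methods name no normalisation or test for these arrays; the methods' t-test is the unpaired one named there for group comparisons in general. The normexp alternative used the median signal in place of the planned mean signal. Other background corrections, centrings, filters, blocks, tests and each array left out were tried. Genes were named by RefSeq transcript (27656 probes). The genes and lists were chosen with earlier results of these data known. All 10 genes are named, with pathway genes past the threshold and up to 3 others per role with the lowest p. Scripts were tested on simulated data. Replicate numbers did not pair the mice (correlations of same-numbered mice -0.288 to 0.149).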

Additional observations from a re-analysis of the deposited data

How the results depend on the processing

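Counts of the 10 enzymes past the threshold in STAM-NON against Normal (1) became 0 with quantile normalisation, the percentile over detected probes or over probes in place of spots, centring on the median, no filter, the slide row as a block, only the 2 groups, or the methods' t-test after Benjamini-Hochberg, and 2 with normexp, trend and robust, the methods' t-test unadjusted or any probe of a gene. With spike-in centring the 1 was Cers5, higher. Leaving out 1 array gave 0 to 4 (4 without STAM-NON 2: Asah1, Cers2, Cers4 and Cers5). Over all 26277 tested probes 4090 passed in the main setting, 4430 with normexp, 4855 with trend and robust and 2966 with quantile normalisation. They were 15 with the slide row, 26 and 7434 with the t-test after and before adjustment, and 242 of 55655 with no filter. Without 1 array they were 864 to 5941, the highest without STAM-NON 2. Counts of the enzymes and the pathway are to be read beside these. In STAM-INS against Normal (1) the count was 0 with quantile normalisation, spike-in centring, the detected percentile, the median, no filter or the slide row, 2 with only the 2 groups, 4 with the unadjusted t-test, and 0 to 2 without 1 array. There the 1 was Asah1, higher, within slide row 2 and in the t-test after adjustment, and Smpd3, higher, without Normal 2. In STAM-INS against STAM-NON it was 0 in every setting run. For the pathway, 5 in STAM-NON against Normal became 9 with normexp, 3 with quantile or the detected percentile, 0 with no filter, the slide row or the t-test after adjustment, 11 with trend and robust or the unadjusted t-test, and 1 to 13 without 1 array (1 without Normal 2 or Normal 3, 13 without STAM-NON 2). The 5 in STAM-INS against Normal became 3 with quantile or the detected percentile, 2 with spike-in centring, the median, the slide row or the adjusted t-test, 0 with no filter, 8 with only the 2 groups, 13 with the unadjusted t-test and 0 to 7 without 1 array (0 without STAM-INS 2 or Normal 3). Over all 26277 tested probes in STAM-INS against Normal, 3586 passed in the main setting, 5075 with only the 2 groups and 8728 with the unadjusted t-test. With no filter 565 of 55655 passed, with the slide row 2108, with the adjusted t-test 2649, and without 1 array 1143 to 4397. The 0 in STAM-INS against STAM-NON became 2 with the unadjusted t-test, where 1498 of all 26277 tested probes lay under 0.05. The cause was not tested. With the replicate number as a block, the member counts were 0, 0 and 0 in STAM-NON against Normal, STAM-INS against STAM-NON and STAM-INS against Normal, and the pathway counts 2, 0 and 1; samples share only a number.

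The other sign changes concerned differences that did not pass. For STAM-INS against STAM-NON, Asah1 was -0.015 with quantile or median centring, -0.15 with spike-ins, -0.038 with the detected percentile, -0.13 with or within the slide row and -0.00055 with the percentile over probes, and -0.22 to 0.13 without 1 array. Smpd3 was -0.34 with or within the slide row and -0.38 to 0.59 without 1 array. Sptlc2 was -0.061 with spike-ins and -0.012 as a mean of probes, and Sptlc1 -0.0055 with spike-ins. Without 1 array Cers2 was -0.15 to 0.066 and Degs1 -0.057 to 0.012. For STAM-NON against Normal, Sptlc1 was 0.017 with spike-ins and Degs1 -0.091 with the median. For STAM-INS against Normal, Cers4 was 0.092 with spike-ins, 0.094 with the detected percentile, 0.017 with or within the slide row and -0.11 to 0.028 without 1 array; Cers6 was 0.048 and 0.050 with these and -0.20 to 0.10 without 1 array; Sptlc1 was 0.012 and 0.014 with these; Degs1 was -0.12 with the median; Sphk1 was -0.46 to 0.013 without 1 array; and its second probe was 0.10 with spike-ins or the detected percentile, 0.0022 with the percentile over probes and -0.39 to 0.22 without 1 array.

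Slide as a block could not be fitted for comparisons with Normal, because slide and group coincide, and was not run. Signal over background limits the second Sphk1 probe, Acer2 and B4galt6 in Normal mice. Settings moved the median of all probes in STAM-NON against Normal from -0.29 to 0.14, by which single differences shift.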
